A study of Homo sapiens with 6 samples.

Results

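HCC-LM3 cells, an established human hepatocellular carcinoma line, received either apigenin (a flavone found in plants) or the DMSO vehicle alone, and their total RNA was sequenced. Described here are 40 genes of glycolysis, glucose and lactate transport and the response to low oxygen, taken by gene symbol from the 23059 genes of the count tables. The set held 4 transporters, 17 glycolytic enzymes, 4 regulators of glycolytic flux, both hypoxia-inducible factor (HIF) alpha subunits HIF1A and EPAS1, and 13 other genes known to be induced by hypoxia. There were 3 apigenin libraries and 3 DMSO libraries, called biological replicates in the titles. The sources used here do not state the apigenin dose, the treatment time or the oxygen level of the cultures, nor that the replicates were separate cultures, so the p-values measure the spread between these libraries.

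In glycolysis a chain of cytosolic enzymes splits glucose into pyruvate, which lactate dehydrogenase turns into lactate. Pyruvate that enters the mitochondria is instead used by the pyruvate dehydrogenase complex there. HIF alpha subunits are hydroxylated by the EGLN prolyl hydroxylases when oxygen is present, bound by VHL and degraded, so that HIF activity is set largely by protein stability. In low oxygen they pair with ARNT and induce the glucose transporter SLC2A1, most glycolytic enzymes, PDK1 and genes such as CA9, NDRG1, BNIP3 and ADM. Tumour cells, liver cancer cells among them, are known for high glycolytic expression even with oxygen present.

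HIF binds DNA at a core of ACGTG or GCGTG, and GCGTG is also the core bound by the aryl hydrocarbon receptor with ARNT. These upstream windows are shown because they belong to the 3 genes that passed the test, SLC2A1, ADM and PFKFB3, and to a pair of enzymes of textbook hypoxia response, PGK1 and LDHA, that did not. Each is the 250 bases before the first RefSeq transcription start listed for the gene on GRCh38.p14, read 5′ to 3′ on the gene's strand. They lie at chr1:42958869-42959118 on the minus strand for SLC2A1 and, on the plus strand, at chr11:10304823-10305072 for ADM, chr10:6144671-6144920 for PFKFB3, chrX:78103998-78104247 for PGK1 and chr11:18394313-18394562 for LDHA. Capitals mark a core on either strand, so that CACGT and CACGC are cores read from the other strand, and CACGTG holds 2 overlapping cores.
SLC2A1: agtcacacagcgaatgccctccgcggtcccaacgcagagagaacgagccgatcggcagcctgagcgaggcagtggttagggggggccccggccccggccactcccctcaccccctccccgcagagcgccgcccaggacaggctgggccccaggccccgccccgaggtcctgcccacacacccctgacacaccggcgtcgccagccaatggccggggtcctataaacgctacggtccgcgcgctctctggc
ADM: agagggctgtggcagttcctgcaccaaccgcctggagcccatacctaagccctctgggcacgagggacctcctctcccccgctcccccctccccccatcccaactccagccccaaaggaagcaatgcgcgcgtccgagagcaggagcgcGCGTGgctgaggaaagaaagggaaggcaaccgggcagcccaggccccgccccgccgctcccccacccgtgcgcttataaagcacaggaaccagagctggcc
PFKFB3: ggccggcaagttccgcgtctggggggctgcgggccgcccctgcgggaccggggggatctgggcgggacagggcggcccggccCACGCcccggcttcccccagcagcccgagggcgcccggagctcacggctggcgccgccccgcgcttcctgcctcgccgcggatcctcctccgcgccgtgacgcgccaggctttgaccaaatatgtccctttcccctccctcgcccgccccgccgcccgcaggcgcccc
PGK1: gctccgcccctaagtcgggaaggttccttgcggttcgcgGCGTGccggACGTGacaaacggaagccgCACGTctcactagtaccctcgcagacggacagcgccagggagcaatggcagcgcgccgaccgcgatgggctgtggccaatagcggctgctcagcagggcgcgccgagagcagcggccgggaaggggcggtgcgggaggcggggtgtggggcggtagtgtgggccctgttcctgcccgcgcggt
LDHA: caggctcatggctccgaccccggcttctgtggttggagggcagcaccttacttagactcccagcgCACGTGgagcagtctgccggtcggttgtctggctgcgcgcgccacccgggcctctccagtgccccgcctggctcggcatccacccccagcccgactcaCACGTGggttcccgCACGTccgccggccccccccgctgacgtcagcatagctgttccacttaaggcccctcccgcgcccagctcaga

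The SLC2A1 window held no core, the ADM and PFKFB3 windows held 1 each, the PGK1 window 3 and the LDHA window 5. Of the 35 genes of the set with a listed window, 22 held at least 1 core (62.9%), against 11763 of all 27305 RefSeq windows of this length (43.1%). A core was present in 10 of 17 glycolytic enzymes, 8 of 11 other hypoxia targets, 2 of 3 flux regulators, 2 of 2 HIF alpha subunits and 0 of 2 transporters. These matches describe letters in a window, the first listed start need not be the one used in these cells, and no binding was measured.

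Library totals ran from 33882145 to 37983636 counts in the apigenin libraries and from 34647650 to 37276429 counts in the DMSO libraries. Counts depended on gene length in a way that differed between libraries: against the DMSO mean, log2 counts changed by -0.07, -0.02 and -0.15 per doubling of gene length in apigenin libraries 1 to 3, against 0.0015, -0.0047 and 0.0032 in the DMSO libraries. Values with this length trend removed are given where they change a result. The line was checked against its markers: 15 of 15 listed hepatocyte and liver tumour markers averaged 1 CPM (reads scaled to a library total of 1000000) or more, with a summed level of 3648 to 4164 CPM in the apigenin libraries and 4185 to 4275 CPM in the DMSO libraries. Of the 15 markers 4 were lower with apigenin and 0 were higher by edgeR, against 4.22% and 2.76% of all genes. Among the 4 was ALB, albumin, with 51.5, 53.4 and 53.9 CPM in the apigenin libraries, against 125.2, 124.6 and 119.2 CPM in the DMSO libraries (log2 fold change -1.22, adjusted p = 3.8e-08). With the length trend removed 7 were lower and 0 higher, against 5.38% and 4.63% of all genes, and the gene TF lost its call (0.0045, adjusted p = 0.984). Of the other cell types, 1 of 8 fibroblast markers (LUM, 29.3 to 31.8 against 23.9 to 25.9 CPM summed over the list), 2 of 6 endothelial markers (PECAM1 and KDR, 87.4 to 96.3 against 104.8 to 110.6 CPM) and 2 of 7 white blood cell markers (CD68 and ITGAM, 91.2 to 101 against 95.5 to 102.4 CPM) reached 1 CPM. COL1A1, CDH5, VWF and PTPRC were below 1 CPM, and the part of these shifts in the results was not tested. In bulk RNA, fewer cells of a type and less RNA per cell cannot be told apart.

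Of the 40 genes, 38 had enough reads to be tested, and 3 differed between apigenin and DMSO at an adjusted p of 0.05. SLC2A1 and ADM were higher with apigenin and PFKFB3 was lower. Of all 15173 genes tested, 419 were higher (2.76%) and 641 were lower (4.22%), 6.99% in all, so the 3 of 38 was close to the share over all genes. The median log2 fold change, apigenin over DMSO, was 0.04 over the 38 genes and 0.0039 over all genes tested. The 2 groups of libraries did not overlap for 4 of the genes in the higher direction and for 7 in the lower one, against 14.4% and 15.0% of all genes tested, or 11 of 38 against 29.4% in either direction. With the length trend removed, 2 genes were higher and 3 were lower (BNIP3L, CA9 and PFKFB3), against 4.63% and 5.38% of all genes.

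**Figure D1:**
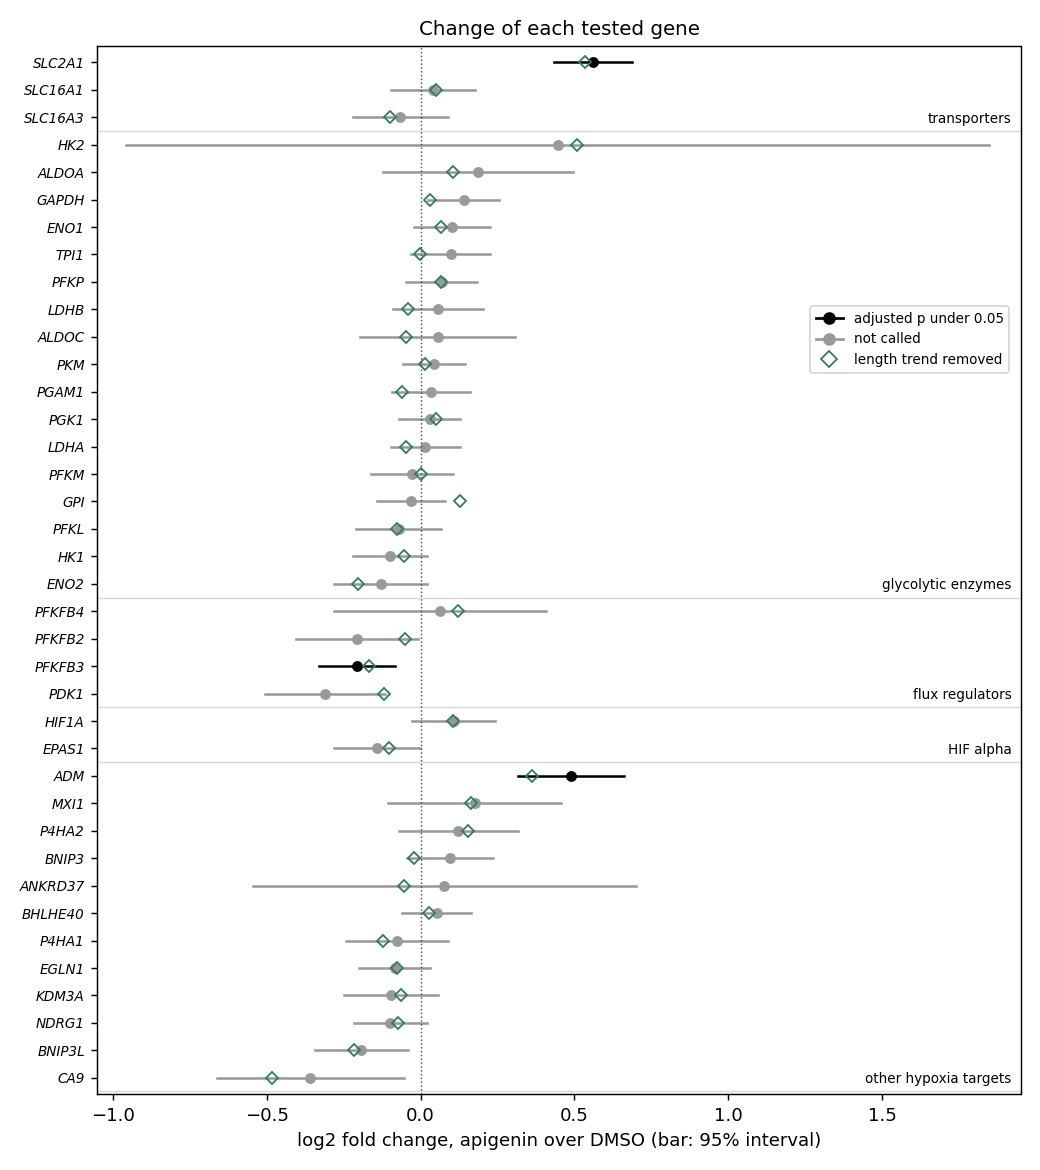
Log2 fold change, apigenin over DMSO, of the 38 tested genes by role (points, with 95% intervals as bars; open diamonds, the estimate with the length trend removed). SLC2A1, ADM and PFKFB3 passed the test, the points of all 17 glycolytic enzymes are grey, and the diamonds of GPI, PFKM, ALDOC, TPI1, PGAM1, LDHA, LDHB, BNIP3 and ANKRD37 lie on the other side of 0 from their points.

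SLC2A1, which encodes GLUT1, the basal glucose carrier of most cell types, showed the smallest adjusted p of the set and lies at chromosome 1, 42925353 to 42958868. It had 240.9, 234.9 and 225.5 CPM in the apigenin libraries, against 152.1, 168.8 and 154.6 CPM in the DMSO libraries. Every apigenin library was above every DMSO library, and the spread within either group was small beside the gap. The mean was 233.8 ± 7.77 CPM with apigenin and 158.5 ± 9.01 CPM with DMSO (SD, n = 3 each), a log2 fold change of 0.56 with an SE of 0.0595 (edgeR quasi-likelihood test, adjusted p = 9.7e-05). The call held under all 18 other settings tried, with log2 fold changes of 0.53 to 0.61.

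The other transporters did not pass the test. SLC16A3, the lactate exporter MCT4, had 110.5, 98 and 120.0 CPM in the apigenin libraries, against 112.7, 118 and 112.9 CPM in the DMSO libraries (log2 fold change -0.07, adjusted p = 0.632). SLC16A1, the lactate carrier MCT1, averaged 79 ± 2.15 CPM with apigenin and 76.8 ± 3.72 CPM with DMSO (log2 fold change 0.04, adjusted p = 0.757). SLC2A3, the high-affinity carrier GLUT3, stood at 0.0297 to 0.261 CPM in the apigenin libraries and 0.16 to 0.405 CPM in the DMSO libraries, or 1 to 10 reads with apigenin and 6 to 14 reads with DMSO, and was not tested. Compared per gene length, SLC2A1 made 99.9 ± 0.045% of the summed FPKM (fragments per kilobase of gene, scaled to a library total of 1000000) of SLC2A1 and SLC2A3 with apigenin and 99.8 ± 0.074% with DMSO. SLC16A3 made 65.8 ± 2.39% of the FPKM of the monocarboxylate carrier pair with apigenin and 67.5 ± 0.731% with DMSO. SLC16A3 overlaps the protein-coding gene CSNK1D, which had 12577 to 14219 reads in the apigenin libraries and 11778 to 12903 reads in the DMSO libraries. Its level is thus uncertain. PFKM, TPI1, PFKFB2 and ANKRD37 also overlap protein-coding genes with reads (SENP1, SPSB2, YOD1, and LRP2BP and UFSP2). The part of these overlaps in the levels was not tested.

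**Figure D2:**
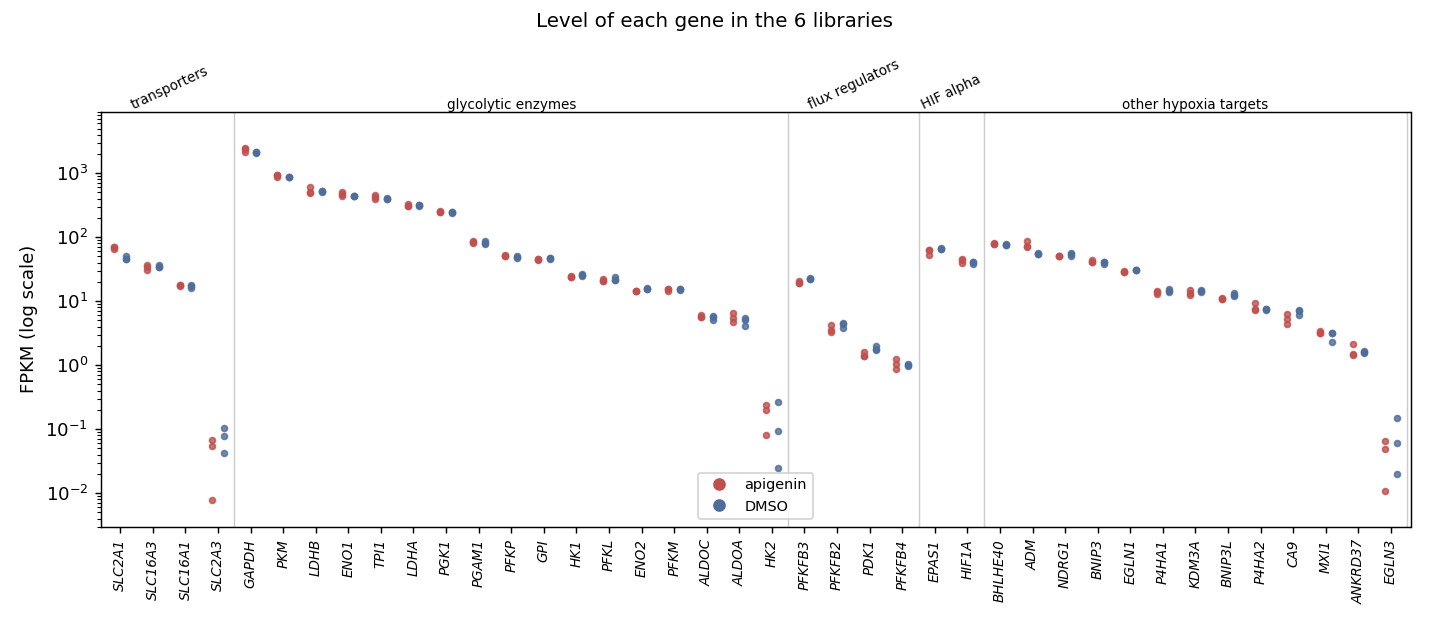
Deposited FPKM of all 40 genes in each of the 6 libraries on a log scale, grouped by role, with apigenin left of DMSO for each gene. GAPDH and PKM stand highest, HK2, SLC2A3 and EGLN3 fall below 1 FPKM in every library, and the groups of SLC2A1 and of ADM are apart.

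No glycolytic enzyme passed the test. Of the 17, all tested, 12 had a positive and 5 a negative log2 fold change, with a median of 0.04 and a range from -0.13 to 0.45. By edgeR 1 of them, GAPDH, had an unadjusted p under 0.05, against 3697 of all 15173 genes tested. DESeq2 called 0 and limma on FPKM called 0 under each of its 3 settings. For 14 of the 17 the 95% interval of the log2 fold change lay within 0.3 on either side of 0, and the exceptions were HK2, ALDOA and ALDOC. Without the length trend the enzymes' median was 0.0006, and 9 of the 17 estimates were positive.

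The order of the levels, compared per gene length, was nearly the same in both groups, with HK2 lowest at 0.174 FPKM with apigenin and 0.127 FPKM with DMSO. GAPDH, which oxidises glyceraldehyde phosphate, averaged 2336 FPKM with apigenin and 2122 FPKM with DMSO. PKM, pyruvate kinase of most non-hepatic and tumour cells, averaged 911.3 FPKM with apigenin and 885.5 FPKM with DMSO. Below them came LDHB, ENO1, TPI1, LDHA and PGK1, between 249.1 and 537.9 FPKM with apigenin and between 244.3 and 518.2 FPKM with DMSO. PGAM1, PFKP, GPI, HK1, PFKL, PFKM and ENO2 stood between 14.4 and 84.2 FPKM with apigenin and between 15.4 and 82.4 FPKM with DMSO. ENO2 and PFKM, with 14.4 and 15.1 FPKM in apigenin libraries against 15.8 and 15.4 FPKM in DMSO libraries, changed places in that order. GENCODE names 62 pseudogenes after GAPDH, 13 after PGAM1 and 3 to 6 after each of LDHA, PKM, ENO1, TPI1 and LDHB, so the reads of these genes may be shared with copies and their levels are uncertain.

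The hexokinase step is the entry of glucose into the pathway. HK1 had 135.6, 132.8 and 132.7 CPM in the apigenin libraries, against 137.6, 147.9 and 143.9 CPM in the DMSO libraries. The groups did not overlap, but the log2 fold change of -0.10 did not pass the test (adjusted p = 0.304). HK2, the hypoxia-induced hexokinase of many tumours, had only 0.47 to 1.43 CPM in the apigenin libraries and 0.145 to 1.55 CPM in the DMSO libraries. Its interval ran from -0.96 to 1.85 on the log2 scale. Its 40, 18 and 48 reads in the apigenin libraries, against 20, 58 and 5 reads in the DMSO libraries, scattered widely within both groups. HK1 made 99.3 ± 0.347% of the FPKM of the pair with apigenin and 99.5 ± 0.453% with DMSO.

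HKDC1, a further hexokinase, was the most abundant of the hexokinase genes per length, at 47.2 ± 0.819 FPKM with apigenin and 47 ± 0.826 FPKM with DMSO (log2 fold change 0.0072, adjusted p = 0.957). PKLR, the liver pyruvate kinase, had 9, 14 and 9 reads in the apigenin libraries, against 13, 12 and 1 reads in the DMSO libraries. SLC2A2, the hepatocyte glucose carrier GLUT2, had 4, 0 and 0 reads in the apigenin libraries, against 1, 0 and 0 reads in the DMSO libraries. Both liver genes were thus nearly unread in every library.

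In the middle of the pathway GPI, which isomerises glucose phosphate, had 500.7, 481.4 and 516.7 CPM in the apigenin libraries, against 499.1, 516.1 and 515.7 CPM in the DMSO libraries (log2 fold change -0.03, adjusted p = 0.77). GPI has a long counted length of 11043 nucleotides, and its estimate with the length trend removed was 0.13 (adjusted p = 0.179). Of the phosphofructokinases, which carry the committed step, the platelet type PFKP made 58.4 ± 0.267% of the FPKM with apigenin and 56.3 ± 1.06% with DMSO. Its libraries did not overlap in this share, while the gene itself did not pass the test (log2 fold change 0.07, adjusted p = 0.472). PFKL made 24.3 ± 0.605% with apigenin and 25.8 ± 0.956% with DMSO, and PFKM 17.3 ± 0.807% with apigenin and 17.9 ± 0.496% with DMSO.

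The aldolases read far below their neighbours. ALDOA, the aldolase of most tissues, had 9.99, 11.8 and 14.2 CPM in the apigenin libraries, against 10.8, 11.7 and 8.97 CPM in the DMSO libraries. Its mean of 5.56 FPKM with apigenin and 4.88 FPKM with DMSO was similar to that of ALDOC, at 5.76 FPKM with apigenin and 5.55 FPKM with DMSO. TPI1, which takes up the product of the aldolase step, stood at 430.8 FPKM with apigenin and 403.1 FPKM with DMSO. RefSeq lists a protein-coding gene, LOC112694756, that overlaps ALDOA, and it had 27 to 32 reads in the apigenin libraries and 20 to 66 reads in the DMSO libraries. Reads that fall in overlapping genes cannot be told apart, and the part of the overlap in the low ALDOA level was not tested.

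The abundant enzymes of the lower part of the pathway shared a pattern across libraries. GAPDH had 4072, 3713 and 4358 CPM in the apigenin libraries, against 3713, 3625 and 3676 CPM in the DMSO libraries. ENO1, the main enolase, had 1508, 1366 and 1613 CPM in the apigenin libraries, against 1394, 1392 and 1391 CPM in the DMSO libraries. TPI1 had 795.6, 742.5 and 877.1 CPM in the apigenin libraries, against 751.1, 755 and 750.8 CPM in the DMSO libraries. In each of the 3 genes apigenin library 3 was highest, library 1 next and library 2 within or near the DMSO range, which was also the order of the length slopes. The log2 fold changes were 0.14 for GAPDH (adjusted p = 0.125), 0.10 for ENO1 (adjusted p = 0.294) and 0.10 for TPI1 (adjusted p = 0.34).

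Apigenin library 2 decided these calls. Without it GAPDH (log2 fold change 0.20, adjusted p = 0.00361), ENO1 (0.16, adjusted p = 0.0185) and TPI1 (0.15, adjusted p = 0.0446) passed the test. That fit also called more genes in general, with 1344 of all 15513 genes tested higher and 1546 lower. With all libraries in, 419 of 15173 were higher and 641 lower, so the gain was not particular to these enzymes. With the length trend removed and all libraries in, the estimates were 0.03 for GAPDH, 0.07 for ENO1 and -0.0033 for TPI1, and none passed. Across the 16 enzymes above 1 CPM the Spearman correlation of log2 fold change with gene length was -0.576. It was -0.366 across the 38 tested genes of the set and -0.358 across all 15173 tested genes. Genes within one set of libraries are not independent, and these correlations are descriptions. The part of gene length in the enzyme values was not tested.

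Of the other enzymes of this stretch, PGK1, phosphoglycerate kinase, had 1203, 1167 and 1228 CPM in the apigenin libraries, against 1175, 1186 and 1164 CPM in the DMSO libraries (log2 fold change 0.03, adjusted p = 0.755). PKM had 3098, 2887 and 3196 CPM in the apigenin libraries, against 2956, 2970 and 2987 CPM in the DMSO libraries (log2 fold change 0.04, adjusted p = 0.627). For both genes the groups overlapped. ENO2, the neuronal enolase that hypoxia also induces, had 33.4, 32.4 and 33.4 CPM in the apigenin libraries, against 35.3, 37.3 and 36 CPM in the DMSO libraries. Its groups did not overlap, and it did not pass the test (log2 fold change -0.13, adjusted p = 0.286). PGAM1, phosphoglycerate mutase, had a log2 fold change of 0.03 (adjusted p = 0.784).

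Lactate dehydrogenase closes the pathway. LDHA, the hypoxia-induced subunit whose window above held 5 HIF cores, had 781.2, 757.1 and 840.9 CPM in the apigenin libraries, against 793.9, 770.8 and 788.6 CPM in the DMSO libraries. Its log2 fold change was 0.02, with a 95% interval from -0.10 to 0.13 (adjusted p = 0.9). LDHB had 1003, 962.9 and 1193 CPM in the apigenin libraries, against 1015, 1004 and 1018 CPM in the DMSO libraries (log2 fold change 0.06, adjusted p = 0.669). LDHB made 62.9 ± 1.4% of the FPKM of the pair with apigenin and 62.3 ± 0.22% with DMSO. For both subunits the estimate was negative once the length trend was removed, at -0.05 for LDHA and -0.04 for LDHB.

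**Figure D3:**
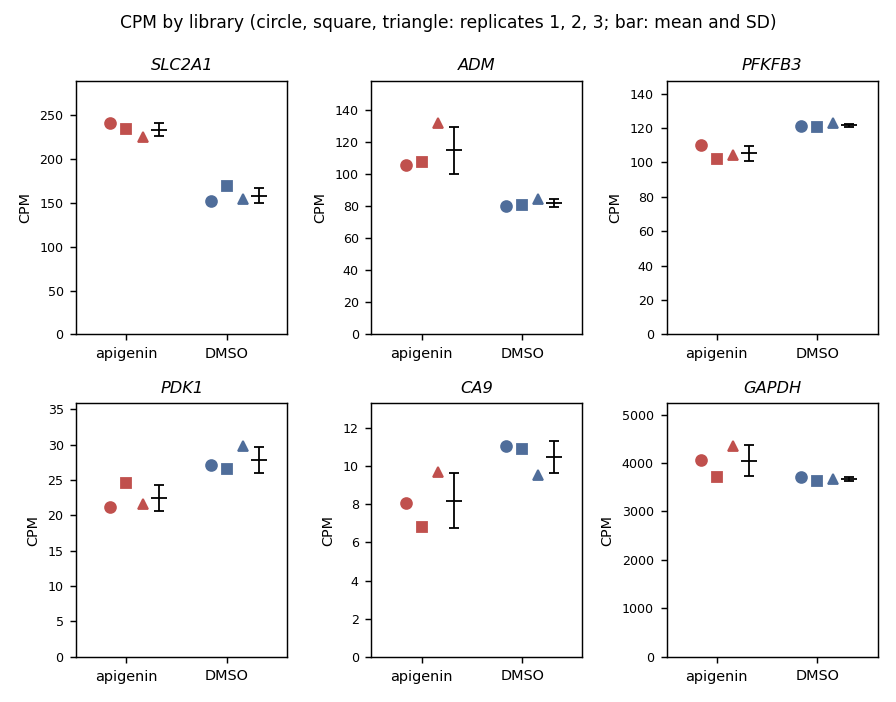
CPM of SLC2A1, ADM, PFKFB3, PDK1, CA9 and GAPDH in each library, apigenin left of DMSO, with the mean and SD of 3 libraries beside the points; axes start at 0. SLC2A1 and ADM lie higher with apigenin with no overlap, PFKFB3 and PDK1 lie lower with no overlap, and CA9 and GAPDH overlap in 1 or more libraries.

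Among the regulators of flux, PFKFB3 was lower with apigenin. PFKFB enzymes make and degrade fructose bisphosphate signals that switch on phosphofructokinase, and PFKFB3 is the isoform with the highest kinase over phosphatase activity and a known HIF target. The gene lies at chromosome 10, 6144921 to 6326637. It had 110.3, 101.9 and 104.2 CPM in the apigenin libraries, against 121.2, 120.9 and 122.8 CPM in the DMSO libraries. Every apigenin library was below every DMSO library. The mean was 105.4 ± 4.36 CPM with apigenin and 121.6 ± 1.04 CPM with DMSO, a log2 fold change of -0.21 with an SE of 0.0579 (adjusted p = 0.0471). This adjusted p was close to the threshold, and the call held in 9 of the 18 other settings, with adjusted p from 0.0167 to 0.195. It was lost without apigenin library 1 and without any of DMSO libraries 1, 2 and 3, with log2 fold changes from -0.24 to -0.18 over the 6 fits that left out 1 library.

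PFKFB3 dominated its family, with 80.4 ± 1.91% of the FPKM of PFKFB2, PFKFB3 and PFKFB4 with apigenin and 81 ± 1.42% with DMSO. PFKFB2, the heart isoform, had 41.8, 48.9 and 39.4 CPM in the apigenin libraries, against 54.2, 51.1 and 44.8 CPM in the DMSO libraries. These groups overlapped, and the log2 fold change of -0.21 did not pass the test (adjusted p = 0.188), although it did without apigenin library 2 (-0.30, adjusted p = 0.0204). PFKFB4, the isoform named for testis, had 5.13 to 7.53 CPM in the apigenin libraries and 5.79 to 6.27 CPM in the DMSO libraries (log2 fold change 0.06, adjusted p = 0.862).

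PDK1, the hypoxia-induced kinase that phosphorylates and inhibits pyruvate dehydrogenase, had 21.2, 24.6 and 21.6 CPM in the apigenin libraries, against 27.2, 26.5 and 29.9 CPM in the DMSO libraries. The groups did not overlap, but the log2 fold change of -0.31 with an SE of 0.0907 missed the threshold (adjusted p = 0.0547). It passed in 4 of 18 other settings, among them DESeq2 (adjusted p = 0.0267) and the fit without apigenin library 2 (-0.38, adjusted p = 0.0108). PDK1 is counted over 15188 nucleotides, and with the length trend removed its estimate was -0.12 (adjusted p = 0.432).

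Other genes of pyruvate uptake by the mitochondria and of the pyruvate dehydrogenase complex and its control were set beside PDK1. Of 13 tested, PDP1 was higher and PDK2 and PDK3 were lower with apigenin, against 2.76% of all genes higher and 4.22% lower. PDK2 had 3.54, 2.69 and 3.33 CPM in the apigenin libraries, against 5.06, 5.29 and 4.77 CPM in the DMSO libraries (log2 fold change -0.66, SE 0.179, adjusted p = 0.0402). PDK3 had 12.7, 16.4 and 12.7 CPM in the apigenin libraries, against 21, 17.8 and 18.2 CPM in the DMSO libraries (log2 fold change -0.44, SE 0.121, adjusted p = 0.0428). PDP1, the phosphatase that reactivates the complex, had 22.9, 23.2 and 21.7 CPM in the apigenin libraries, against 18.2, 18.7 and 17.9 CPM in the DMSO libraries (log2 fold change 0.31, SE 0.0868, adjusted p = 0.0471). In none of the 3 genes did the groups overlap.

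Over the 18 other settings PDK2 was called in 12, PDK3 in 9 and PDP1 in 8. All 3 calls held without apigenin library 3. PDK2 and PDP1 lost theirs without apigenin library 1 or 2 or any DMSO library (adjusted p up to 0.146 for PDK2 and up to 0.182 for PDP1), and kept their directions. PDK3 lost its call without apigenin library 1 or any DMSO library (adjusted p up to 0.2) and with the length trend removed (-0.28, adjusted p = 0.111). PDK4, the kinase induced by fasting, had 16.4, 17.5 and 17.4 CPM in the apigenin libraries, against 16.8, 16.8 and 15.3 CPM in the DMSO libraries (log2 fold change 0.07, adjusted p = 0.723). Per gene length PDK4 was the most abundant of the family and made 58.9 ± 1.15% of the summed FPKM of the 4 kinases with apigenin and 50.1 ± 1.56% with DMSO. That sum was 7.81, 8.46 and 7.94 FPKM in the apigenin libraries, against 9.31, 9.1 and 8.75 FPKM in the DMSO libraries, with no overlap. PDK1 and PDK3 are counted over 15188 and 13074 nucleotides, against 3601 for PDK4. The share and the sum were not computed with the length trend removed, and the part of gene length in them was not tested.

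PDP2, the other phosphatase, moved the other way from PDP1 in sign, with a log2 fold change of -0.27 (adjusted p = 0.113), and PDPR, the regulatory subunit of the phosphatase, had -0.33 (adjusted p = 0.118). Both were lower with apigenin with no overlap of the groups, and each was called in 1 of 18 other settings, PDP2 without apigenin library 2. Of the 13 genes, the groups were apart for 2 in the higher and 5 in the lower direction, against 14.4% and 15.0% of all genes tested. PDHA1, the subunit that the kinases phosphorylate, had 58, 60.1 and 72.6 CPM in the apigenin libraries, against 62.9, 63.2 and 60.9 CPM in the DMSO libraries (log2 fold change 0.03, adjusted p = 0.882). The mitochondrial pyruvate carrier genes MPC1 (0.07, adjusted p = 0.714) and MPC2 (-0.02, adjusted p = 0.908) did not pass the test.

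**Figure D4:**
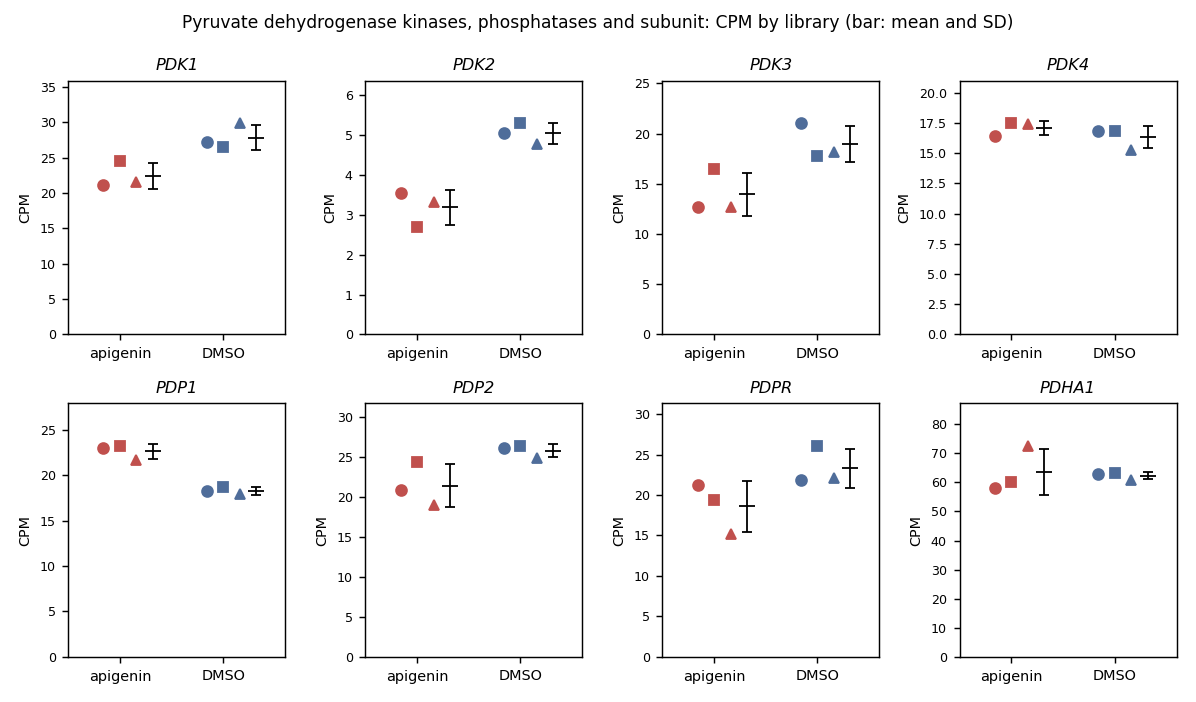
CPM of the 4 pyruvate dehydrogenase kinases, the 2 phosphatases, the phosphatase regulator PDPR and the subunit PDHA1 in each library, apigenin left of DMSO, with mean and SD; axes start at 0. PDK1, PDK2, PDK3, PDP2 and PDPR lie lower with apigenin, PDP1 lies higher, and PDK4 and PDHA1 overlap.

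The HIF alpha transcripts did not pass the test. EPAS1, which encodes HIF-2 alpha, had 341.3, 339.5 and 288.4 CPM in the apigenin libraries, against 362.8, 354.5 and 351.4 CPM in the DMSO libraries. The groups did not overlap, with apigenin library 3 well below the rest, and the log2 fold change was -0.14 (SE 0.0654, adjusted p = 0.204). HIF1A had 184.4, 187.9 and 167.1 CPM in the apigenin libraries, against 170.4, 158 and 172.6 CPM in the DMSO libraries (log2 fold change 0.11, SE 0.0629, adjusted p = 0.321). Without apigenin library 3 HIF1A passed (0.16, adjusted p = 0.0413). By edgeR 1 of the pair, EPAS1, had an unadjusted p under 0.05, against 3697 of all 15173 genes tested. For the pair DESeq2 called 0 and limma on FPKM called 0.

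Per length, HIF1A made 41.3, 41.9 and 43% of the summed FPKM of HIF1A and EPAS1 in the apigenin libraries, against 37.9, 36.7 and 39% in the DMSO libraries. The share was higher with apigenin in each of the 3 libraries by a mean of 4.17 percentage points, beyond the SD of 0.865 with apigenin and of 1.14 with DMSO. No test was run on shares. HIF1A and EPAS1 stood at 42.9 and 59.3 FPKM with apigenin and at 39.9 and 65.4 FPKM with DMSO. Both HIF1A antisense genes in the files had 44 or fewer reads in every library, and no source used here says whether counting used strand.

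Of 14 tested genes of the HIF machinery, edgeR called ARNT2 and CITED2 lower with apigenin and 0 higher, against 4.22% and 2.76% of all genes. An unadjusted p under 0.05 was found for 5 of the 14, against 3697 of all 15173 genes tested. DESeq2 called the same pair lower and 2 genes higher, ELOB and ELOC, which encode the elongin subunits of the VHL complex. Over all genes DESeq2 called 967 lower and 722 higher. Limma on FPKM called 0 of the list higher. Without apigenin library 2 edgeR called 4 of 15 lower and 3 higher, the elongin genes and RBX1, a further subunit of the VHL complex. That fit called 1546 of all 15513 genes tested lower and 1344 higher. With the length trend removed and all libraries in, ELOB (0.12, adjusted p = 0.207), ELOC (0.18, adjusted p = 0.0667) and RBX1 (0.09, adjusted p = 0.518) did not pass. ARNT2, a partner of HIF alpha best known from the brain, had 8.02, 6.97 and 8.33 CPM in the apigenin libraries, against 13.6, 14.8 and 11.9 CPM in the DMSO libraries (log2 fold change -0.79, SE 0.127, adjusted p = 0.0024). CITED2, which competes with HIF1A for the coactivators CBP and p300, had 82.1, 80.9 and 78.6 CPM in the apigenin libraries, against 98.5, 92 and 96.1 CPM in the DMSO libraries (log2 fold change -0.25, SE 0.06, adjusted p = 0.0274). The groups were apart for both genes, and of 18 other settings ARNT2 was called in 17 and CITED2 in 11. The CITED2 call was lost in each limma setting and without apigenin library 1 or any DMSO library (adjusted p up to 0.161). ARNT, the general partner, had a log2 fold change of -0.14 (adjusted p = 0.304), VHL of -0.0046 (adjusted p = 0.975) and HIF1AN, the asparagine hydroxylase, of 0.02 (adjusted p = 0.899). ARNT2 made up 1.19 ± 0.0987 FPKM with apigenin and 2.06 ± 0.23 FPKM with DMSO, well below ARNT at 13.3 ± 1.58 FPKM with apigenin and 14.7 ± 0.57 FPKM with DMSO.

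Of the other hypoxia targets, ADM alone passed the test. ADM encodes adrenomedullin, a secreted vasodilator peptide that acts on endothelial cells, and lies at chromosome 11, 10305073 to 10307397. It had 105.7, 107.3 and 131.7 CPM in the apigenin libraries, against 80.4, 80.5 and 84.6 CPM in the DMSO libraries. Every apigenin library was above every DMSO library, and apigenin library 3 was highest. The mean was 114.9 ± 14.6 CPM with apigenin and 81.8 ± 2.41 CPM with DMSO, a log2 fold change of 0.49 with an SE of 0.0802 (adjusted p = 0.00273). ADM is counted over only 1492 nucleotides, and with the length trend removed its log2 fold change was 0.36 (adjusted p = 0.000191). It was called in 16 of 18 other settings and missed the threshold in limma on log2(FPKM + 0.1) (adjusted p = 0.0674) and on unfiltered log2(FPKM + 1) (adjusted p = 0.0837).

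CA9, the membrane carbonic anhydrase often used as a tissue marker of hypoxia, had 8.07, 6.83 and 9.7 CPM in the apigenin libraries, against 11.1, 10.9 and 9.52 CPM in the DMSO libraries. Apigenin library 3 lay inside the DMSO range, and the log2 fold change of -0.36 (SE 0.142) did not pass (adjusted p = 0.137). It passed with the length trend removed (-0.48, adjusted p = 0.0191) and without apigenin library 3 (-0.50, adjusted p = 0.0275). BNIP3L, a mitochondrial receptor that marks the organelle for autophagy, had 39, 38.6 and 40.3 CPM in the apigenin libraries, against 47.2, 44.5 and 42.9 CPM in the DMSO libraries. Its groups did not overlap, and its log2 fold change of -0.19 did not pass (adjusted p = 0.11). It passed in 2 of 18 other settings, both with the length trend removed (-0.21, adjusted p = 0.0383 in the plain form).

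BNIP3, the paralog of BNIP3L with the same role, had 63.8, 63.5 and 67.5 CPM in the apigenin libraries, against 62, 57.8 and 62.3 CPM in the DMSO libraries (log2 fold change 0.10, adjusted p = 0.395). BNIP3 had the opposite sign to BNIP3L as counted, and its estimate with the length trend removed was -0.02. GENCODE names 39 pseudogenes after BNIP3, and it overlaps PPP2R2D, so its level is uncertain. BHLHE40, a transcriptional repressor and the most abundant of the other hypoxia targets per length, had 279.4, 266.4 and 268.6 CPM in the apigenin libraries, against 256.2, 268.1 and 260.9 CPM in the DMSO libraries (log2 fold change 0.05, adjusted p = 0.59). NDRG1, a stress-induced growth regulator, had 253.3, 247.2 and 255.2 CPM in the apigenin libraries, against 255.1, 273.8 and 280.4 CPM in the DMSO libraries (log2 fold change -0.10, adjusted p = 0.297). For both genes 1 or more libraries of one group lay within the range of the other.

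The prolyl hydroxylases that HIF induces as feedback gave no call. EGLN1, the main oxygen sensor, had 128.1, 126.2 and 126.9 CPM in the apigenin libraries, against 133.6, 136.3 and 134.1 CPM in the DMSO libraries. The groups were apart, and the log2 fold change of -0.08 did not pass (adjusted p = 0.368). EGLN3 had 0.0297 to 0.177 CPM in the apigenin libraries and 0.0535 to 0.405 CPM in the DMSO libraries and was not tested. The collagen hydroxylase subunits P4HA1 and P4HA2 had log2 fold changes of -0.08 (adjusted p = 0.59) and 0.12 (adjusted p = 0.435). The histone demethylase KDM3A had -0.10 (adjusted p = 0.447), the MYC antagonist MXI1 0.18 (adjusted p = 0.446) and ANKRD37, an ankyrin repeat protein read at 1.47 to 2.17 CPM with apigenin and 1.59 to 1.71 CPM with DMSO, 0.08 (adjusted p = 0.91).

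Glycolytic enzymes were then set against the other hypoxia targets. Of 17 enzymes 0 passed the test and of 12 tested hypoxia targets 1 did, against 6.99% of all genes. The medians of the log2 fold change were 0.04 for the enzymes and -0.01 for the targets, beside 0.0039 for all genes. Measured in each library as the median log2 deviation from the DMSO mean, the enzymes stood at 0.03, -0.03 and 0.06 in the apigenin libraries, against 0.0003, 0.0092 and -0.0013 in the DMSO libraries. The targets stood at -0.06, 0.02 and -0.04 in the apigenin libraries, against -0.0028, -0.0094 and 0.03 in the DMSO libraries. Enzymes minus targets was thus 0.09, -0.05 and 0.11 in the apigenin libraries, against 0.0031, 0.02 and -0.03 in the DMSO libraries. The difference changed sign with apigenin library 2, and its fitted value of 0.06 was below the within-group SD of 0.063.

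In share of all reads, the 17 enzymes took 1.37, 1.29 and 1.44% of counts in the apigenin libraries, against 1.3, 1.3 and 1.3% in the DMSO libraries. The 12 targets took 0.105, 0.103 and 0.105% in the apigenin libraries, against 0.102, 0.104 and 0.104% in the DMSO libraries. The enzymes were spread more widely among the apigenin libraries than among the DMSO libraries, and the targets showed no such spread.

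**Figure D5:**
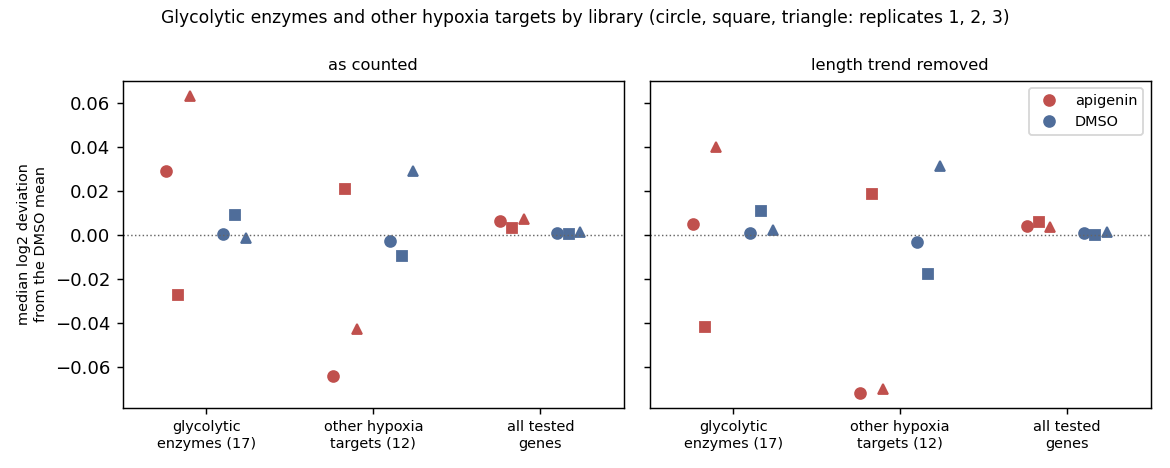
Median log2 deviation from the DMSO mean in each library for the 17 glycolytic enzymes, the 12 tested other hypoxia targets and all tested genes, apigenin left of DMSO, as counted (left) and with the length trend removed (right). The apigenin enzyme medians run from -0.03 to 0.06 as counted, on both sides of the DMSO medians.

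Other lists of the pathway were counted by the same fit. Of 38 tested genes of a further hypoxia list, 5 were higher and 3 were lower with apigenin, against 2.76% and 4.22% of all genes, with a median log2 fold change of -0.07. The counts were 6 higher and 7 lower with the length trend removed (4.63% and 5.38% of all genes), 5 and 6 with DESeq2, and 2 and 1 without DMSO library 1. AK4, a mitochondrial adenylate kinase, had 12.4, 14.4 and 12.3 CPM in the apigenin libraries, against 22.9, 19.3 and 23.3 CPM in the DMSO libraries (log2 fold change -0.75, SE 0.109, adjusted p = 0.00139). The groups did not overlap.

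IGFBP3, a secreted binder of insulin-like growth factors, had 120.4, 115.5 and 122.5 CPM in the apigenin libraries, against 150.3, 147.8 and 145.5 CPM in the DMSO libraries (log2 fold change -0.31, adjusted p = 0.00515; adjusted p = 0.059 without DMSO library 1). HMOX1, heme oxygenase, which oxidative stress also induces through NRF2, had 367.2, 342.6 and 375.7 CPM in the apigenin libraries, against 284.9, 305.8 and 282.8 CPM in the DMSO libraries (log2 fold change 0.31, adjusted p = 0.00554). Its log2 fold change was 0.20 with the length trend removed, and its call was lost without apigenin library 1 or DMSO library 1 or 3 (adjusted p up to 0.068). HMOX1 was called in 13 of 18 other settings. MAFF, a small MAF transcription factor, had 11, 13.9 and 12.9 CPM in the apigenin libraries, against 8.31, 7.38 and 8.1 CPM in the DMSO libraries (log2 fold change 0.67, adjusted p = 0.00625). STC2, a secreted glycoprotein, had 42.2, 45 and 46 CPM in the apigenin libraries, against 35.6, 34.8 and 36 CPM in the DMSO libraries (log2 fold change 0.32, adjusted p = 0.0157). The STC2 call was lost without any 1 of the DMSO libraries (adjusted p up to 0.0942) and held in 14 of 18 other settings. PPP1R15A was also called higher and ERO1A lower, and neither call held without apigenin library 1 or any DMSO library. Of 18 other settings PPP1R15A was called in 9 and ERO1A in 7.

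VEGFA, the angiogenic factor that HIF induces and a gene of the same list, did not pass the test. It had 71.1, 64.6 and 67.2 CPM in the apigenin libraries, against 71.1, 70.2 and 72.5 CPM in the DMSO libraries (log2 fold change -0.08, adjusted p = 0.508). Its apigenin values overlapped the DMSO range in library 1.

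Of 24 tested genes of gluconeogenesis, liver isoforms and adjoining steps, edgeR called 1 higher and 0 lower, against 2.76% and 4.22% of all genes. An unadjusted p under 0.05 was found for 5 of the 24, against 3697 of all 15173 genes tested. DESeq2 and limma on FPKM also called 1 higher and 0 lower, and with the length trend removed the counts were 2 higher (GCKR and TIGAR) and 1 lower (SLC37A4). The gene called as counted was GCKR, which encodes a regulator of glucose phosphorylation in hepatocytes. It had 10.2, 10.8 and 11.2 CPM in the apigenin libraries, against 5.41, 6.2 and 6.51 CPM in the DMSO libraries (log2 fold change 0.83, SE 0.127, adjusted p = 0.00183), and it was called in all 18 other settings. Its level of 4.81 ± 0.2 FPKM with apigenin and 2.7 ± 0.253 FPKM with DMSO did not overlap between the groups. Of 7 tested genes of the pentose phosphate pathway, which branches from glycolysis at glucose phosphate, 0 passed the edgeR test. Against 3697 of all 15173 genes tested, 2 of the 7 had an unadjusted p under 0.05. DESeq2 called 1 of them, TALDO1, transaldolase, and limma on FPKM called 0. TALDO1 had 814, 764.1 and 937.2 CPM in the apigenin libraries, against 714.6, 748 and 718.2 CPM in the DMSO libraries (log2 fold change 0.21, adjusted p = 0.0777), and its estimate with the length trend removed was 0.06.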

How the data were processed

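Per the labels' protocols, RNA was isolated from HCC-LM3 cells with TRIzol and VAHTS Universal V6 libraries were made. Samples were grouped by their titles into 3 apigenin and 3 DMSO libraries. The submitters' processing notes name HISAT2, HTSeq, fastp and the build GRCh38, and the sources used here give no versions, annotation or strand setting. The authors deposited a read count per gene, not normalized, and an FPKM value per gene for each library. The deposited FPKM equalled count over a fixed gene length over library total for 100.0% of 23059 genes (relative tolerance 0.0001), which gave each gene's length.

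Counts of 15173 genes kept by edgeR's default filter were tested with edgeR 4.0.16 (quasi-likelihood, TMM factors, Benjamini-Hochberg over all tested genes, threshold 0.05) under R 4.3.3. SE came from the log2 fold change and the test statistic, and 95% intervals from its degrees of freedom. CPM was each count scaled to a library total of 1000000, after that total was multiplied by the library's TMM factor (0.9882 to 1.0092). FPKM and shares of counts used the totals without this factor. FPKM was used to compare genes. The length trend was a lowess curve (span 0.3) of each library's log2 deviation on length, put in as an offset. Alternatives were other scalings and filters, the replicate number as a block, DESeq2 1.42.0, limma 3.58.1 on log2(FPKM + 1) and log2(FPKM + 0.1), and each library left out. Without the TMM factor a count of 3 is 0.079 to 0.0885 CPM, and intervals and floors cover counting error only where they rest on counts of 1 library. The fits were also run on simulated counts, with results not given here. The simulated length slopes were less steep than those found in apigenin libraries 1 and 3. The simulation therefore cannot show how the fits do at the slopes found.

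The genes, lists, motifs and tests were chosen with earlier results of these data known. All 40 genes are accounted for. Values in every library are given for genes that passed the test and for the most abundant of each role, and from other lists at most 6 genes with the smallest adjusted p are named, plus some that did not pass, chosen after their values were seen. Some genes of these lists are not reported here. Positions and upstream sequences are from RefSeq GRCh38.p14.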

Additional observations from a re-analysis of the deposited data

How the results depend on the processing

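Over all genes, 419 were higher and 641 lower with apigenin. These counts were 865 and 1096 with no filter on low counts, 722 and 967 with DESeq2, 194 and 185 with limma on log2(FPKM + 1), 109 and 105 on log2(FPKM + 0.1), and 123 and 97 on unfiltered log2(FPKM + 1). With 1 library left out they ran from 103 to 1344 higher and from 157 to 1546 lower, lowest without DMSO library 1 and highest without apigenin library 2. With the length trend removed 702 genes were higher, and 828 with the replicate block added.

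Of the set, 2 genes were higher and 1 was lower. The higher count was 1 with limma on log2(FPKM + 0.1) and on unfiltered log2(FPKM + 1), and 2 to 5 with 1 library left out. The lower count was 0 with upper-quartile factors, the replicate block and each limma setting, 2 with no filter, the stricter filter and DESeq2, 3 with the length trend removed with or without the replicate block, and 0 to 3 with 1 library left out. SLC2A1 passed in every setting run and ADM in all but the 2 limma settings named, while PFKFB3 passed in 9 of 18.

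The enzyme median was 0.0006 with the length trend removed and 0.0004 with the replicate block added; the median of the other hypoxia targets was -0.0598 and -0.0689, and -0.0563 to 0.0091 with 1 library left out. Enzymes minus targets ran from 0.0028 to 0.1193 with 1 library left out.

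Signs of 12 genes that were not called changed. With the length trend removed, and then with the replicate block added, log2 fold changes were 0.1299 and 0.1238 for GPI, 0.0006 and 0.0004 for PFKM, -0.047 and -0.0478 for ALDOC, -0.0033 and -0.0036 for TPI1, -0.0604 and -0.0607 for PGAM1, -0.0478 and -0.0478 for LDHA, -0.0406 and -0.0423 for LDHB, -0.0206 and -0.0204 for BNIP3, and -0.0551 and -0.0881 for ANKRD37. With 1 library left out they ran from -0.1361 to 0.008 for SLC16A3, -0.0342 to 1.5602 for HK2, -0.0528 to 0.0073 for PFKM, -0.0073 to 0.0996 for ALDOC, -0.0282 to 0.047 for LDHA, -0.0427 to 0.1154 for LDHB, -0.0919 to 0.1826 for PFKFB4 and -0.1209 to 0.1786 for ANKRD37. The cause was not tested where settings changed a value.

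The replicate block gave 455 genes higher and 776 lower, and 2 and 0 of the set. Deviations of same-numbered libraries correlated at -0.02, -0.02 and -0.05, and no library correlated best with its own number. Taken from means of only 3 libraries, these values cannot show whether same-numbered libraries were handled together. The titles give no link beyond the shared number. SLC2A3 and EGLN3 had too few reads to be tested, and HK2 and ANKRD37 stayed below 3 CPM.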
